A study of Homo sapiens with 48 samples.

Results

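Sodium lauryl sulfate (SLS), an anionic detergent, was compared directly with tofacitinib, an inhibitor of JAK kinases, by RNA sequencing of THP-1 cells. THP-1 is an established human line of monocyte-like leukemia cells. The comparison rests on 6 of the 48 libraries of the series, namely the 3 libraries labelled SLS and the 3 labelled tofacitinib, and members were taken by those labels alone. Cells had been exposed for 12 h in serum-containing medium, each chemical at its CV90, a dose chosen so that most cells stay viable. No source used here states the concentrations, so nothing shows that the chemicals were matched in dose. All groups were of the same line, with no other agent named. Vehicle libraries came from cells kept with dimethyl sulfoxide (DMSO) in 2 numbered series of 3 libraries, and the labels do not tie a series to a chemical. Titles of the 6 vehicle libraries carry DMSO levels from 0.1% to 0.6%, whereas the exposure protocol names 0.1%. No label states that replicate libraries were grown as separate cultures, so p-values measure only how far libraries scatter, and that scatter may be technical. Scatter within groups was estimated over all 48 libraries in 16 groups, not over these 6 alone.

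Both chemicals raised genes of the integrated stress response, and the comparison asks which genes set the detergent and the kinase inhibitor apart. In that response, kinases that sense amino acid shortage, misfolded protein in the endoplasmic reticulum, heme shortage or double-stranded RNA phosphorylate the initiation factor eIF2. General translation then falls while the transcription factor ATF4 is translated, and ATF4 drives genes for amino acid uptake, amino acid synthesis and tRNA charging. JAK kinases lie under cytokine receptors and phosphorylate STAT factors, which induce feedback inhibitors such as CISH and the SOCS proteins. Lipid levels are read by other factors: SREBP factors raise cholesterol synthesis when membrane sterol is low, LXR raises cholesterol export when sterols are in excess, and PPAR factors bind fatty acids and raise the genes that burn and store them.

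Total read counts were 9342432, 9340414 and 10387867 in the SLS libraries and 9519061, 7989490 and 8207714 in the tofacitinib libraries. The 15 monocytic markers summed to between 3867 and 4196 CPM (read counts scaled to library size) in these 6 libraries. Markers of T cells, epithelial cells, fibroblasts and erythroid cells summed to at most 2.36 CPM each, and HBB was at 0 in all 6. The 5 B cell markers summed to between 16.1 and 21.2 CPM. Each vehicle series comes with 3 untreated libraries of the same series number, and the vehicle and untreated libraries of a series are together called a control series here. Between control series 2 and control series 1, 4716 of 15642 genes tested (30.1%) were called. On a scale drawn from the untreated libraries, with vehicle series 1 at 0 and vehicle series 2 at 1, the SLS libraries lay at 0.0517 ± 0.00629 and the tofacitinib libraries at 0.303 ± 0.112 (SD, n = 3 each). The log2 difference between control series, series 2 minus series 1 with vehicle and untreated libraries pooled, is therefore given below for genes called in both comparisons. A fit with this position as a covariate was added after the data were seen. It held only the SLS, tofacitinib and vehicle libraries, with the vehicle series merged. It called 2124 genes, against 1219 in the fit of all 48 libraries, so it is no like-for-like check of the calls. Of 131 genes called between the chemicals and refitted in this way, 125 kept the call. The 6 that lost it were SLC1A3, SLC36A4, IFIT3, HLA-DMA, OSGIN1 and IER3, with adjusted p of 0.0714, 0.0583, 0.117, 0.075, 0.142 and 0.0551 in that order.

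In the direct comparison, 1219 of 15642 genes tested were called at an adjusted p under 0.05 (7.79%; edgeR quasi-likelihood F-test, Benjamini-Hochberg over all genes). Of these, 664 were higher with SLS (4.24%) and 555 were higher with tofacitinib (3.55%). The 3 libraries of one chemical all lay above the 3 of the other for 4191 genes (26.8%). The difference was at least 2-fold for 79 of the genes higher with SLS and for 52 of those higher with tofacitinib, and the median log2 difference over all genes was -0.002217. For 10197 of the 14423 genes not called (70.7%), the 95% interval of the difference lay within 2-fold. The number called fell to 744 without SLS 1, 703 without SLS 2, 793 without SLS 3, 853 without tofacitinib 1, 720 without tofacitinib 2 and 814 without tofacitinib 3. Of the 664 genes higher with SLS, 332 (50%) were also called between the control series, 260 of them lower in series 2, and of the 555 higher with tofacitinib, 251 (45.2%) were, 196 of them higher in series 2.

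**Figure D1:**
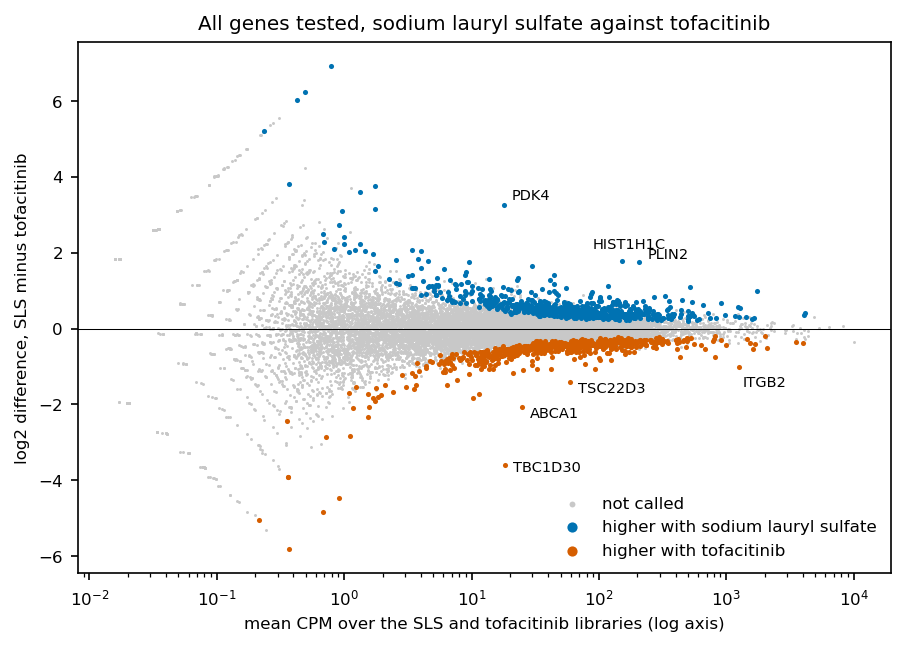
Each point is 1 of 15642 genes, with the mean CPM over the 6 libraries on a log axis and the log2 difference, SLS minus tofacitinib, on the other. Blue points are the 664 genes called higher with SLS, orange points the 555 called higher with tofacitinib and grey points the rest; of the labelled genes, PDK4 (3.25) lies highest and TBC1D30 (-3.61) lowest, and the most extreme points of all are genes of low CPM.

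Against vehicle, a gene had to differ in the same direction from each vehicle series. By that rule 44 genes rose with SLS (0.281%) and 4 fell (0.0256%), while 171 rose (1.09%) and 192 fell (1.23%) with tofacitinib. The 4 genes that fell with SLS, named for their small number after their values were seen, were the cholesterol exporter gene ABCA1, the ubiquitin ligase gene RNF145, the sestrin gene SESN3 and the methionine salvage gene ADI1. Comparisons with vehicle share the vehicle libraries and also share the treated libraries with the direct comparison, so their values are set side by side and not counted as separate evidence.

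Part of the integrated stress response list rose with each chemical, and the share called between the chemicals was near that of all genes. Of 22 listed genes, all tested, 10 rose with SLS and 13 with tofacitinib, and none fell with either. The median log2 difference from vehicle was 1.09 with SLS and 0.99 with tofacitinib. In the direct comparison 1 of the 22 was called (4.55%, against 7.79% of all genes), with a median log2 difference of -0.0967, and for 16 of the 21 not called the 95% interval lay within 2-fold. The libraries of the chemicals did not overlap, in one direction or the other, for 10 of the 22, against 26.8% of all genes.

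CHAC1, which encodes an enzyme that degrades glutathione, stood at 31.0, 37.1 and 38.9 CPM with SLS and at 38.0, 30.4 and 31.6 CPM with tofacitinib. The vehicle libraries held 2.65 to 6.10 CPM (median 4.14), below every treated library, while the SLS and tofacitinib libraries overlapped. The log2 difference between the chemicals was 0.10 (95% interval -0.30 to 0.49). Its promoter is printed because the gene rose strongly with both chemicals, by 3.05 with SLS and 2.95 with tofacitinib on the log2 scale, and holds a match to the C/EBP-ATF response element, the kind of site that ATF4 is known to bind. The sequence is from RefSeq, GRCh38.p14, chr15:40953221-40953520, plus strand, 250 bases before to 50 bases after the annotated start. Capitals mark the match to TGATGNAA, read on the reverse strand, at bases 209 to 202 before the start.
CHAC1 promoter: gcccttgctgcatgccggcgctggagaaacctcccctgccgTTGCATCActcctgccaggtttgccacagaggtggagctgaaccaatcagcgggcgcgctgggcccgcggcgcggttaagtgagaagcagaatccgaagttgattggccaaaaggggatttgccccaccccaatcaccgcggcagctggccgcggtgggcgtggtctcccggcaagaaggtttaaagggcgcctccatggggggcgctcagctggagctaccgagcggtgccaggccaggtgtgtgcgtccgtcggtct
On both strands, 3.62% of 35116 RefSeq promoters of this length held such a match, as did 2 of the 19 listed genes found in the table (ATF3 and CHAC1). It overlapped none of the other motifs searched here. A match of letters does not show binding.

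SESN2, a sestrin that restrains growth signalling by mTORC1, stood at 57.6, 59.9 and 55 CPM with SLS and at 63.8, 55.9 and 58.5 CPM with tofacitinib, over vehicle values of 14.5 to 17.0 CPM. The groups overlapped and differed by -0.05 on the log2 scale (95% interval -0.32 to 0.22). The adrenomedullin-family hormone gene ADM2 stood at 22.2 to 24.6 CPM with SLS and 24.5 to 27.7 CPM with tofacitinib (vehicle median 4.79), with a log2 difference of -0.19 (-0.59 to 0.20). TRIB3, a pseudokinase, and ATF5, a relative of ATF4, rose with both, by 1.17 and 1.25 with SLS and by 0.93 and 1.2 with tofacitinib on the log2 scale. JDP2, STC2, FAM129A and INHBE also rose with both, and none of these genes was called between the chemicals.

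DDIT4, an inhibitor of mTORC1 signalling, was the exception. It stood at 12.1, 7.75 and 13.7 CPM with SLS, at 20.5, 20.0 and 22.7 CPM with tofacitinib, and at 3.60 to 6.57 CPM (median 4.89) in the vehicle libraries. Every tofacitinib library lay above every SLS library, and the log2 difference was -0.91 (SE 0.19, adjusted p = 0.00166). DDIT4 was also higher in control series 2, by 0.62 on the log2 scale.

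The transcription factors of the list were not called between the chemicals in either direction. ATF4 stood at 409, 439 and 437 CPM with SLS and at 554, 556 and 565 CPM with tofacitinib, and the libraries did not overlap (log2 difference -0.38, SE 0.14, adjusted p = 0.083). The 6 vehicle libraries spread from 197 to 392 CPM, and ATF4 was higher in control series 2 by 0.79 on the log2 scale. DDIT3, which encodes the pro-apoptotic factor CHOP, had a log2 difference of -0.26 (adjusted p = 0.0872), and the stress-induced chromatin protein gene NUPR1 one of -0.61 (adjusted p = 0.0666). DDIT3 and NUPR1 were higher in control series 2 as well, by 0.24 and 0.69. CEBPG, a partner of ATF4, had the opposite sign, at 83.4, 80.1 and 75.8 CPM with SLS and 63.6, 64.1 and 62.3 CPM with tofacitinib (log2 difference 0.33, adjusted p = 0.269), as had ATF3 and CEBPB, at 0.30 and 0.15. In the 6 libraries alone, the adjusted p was 0.00119 for ATF4, 0.00817 for NUPR1, 0.0193 for CEBPG and 0.0611 for DDIT3. Over vehicle, ATF4, DDIT3 and NUPR1 rose with tofacitinib, by 1.01, 0.78 and 1.77 on the log2 scale. With SLS they differed from vehicle by 0.62, 0.52 and 1.16 and were not called.

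**Figure D2:**
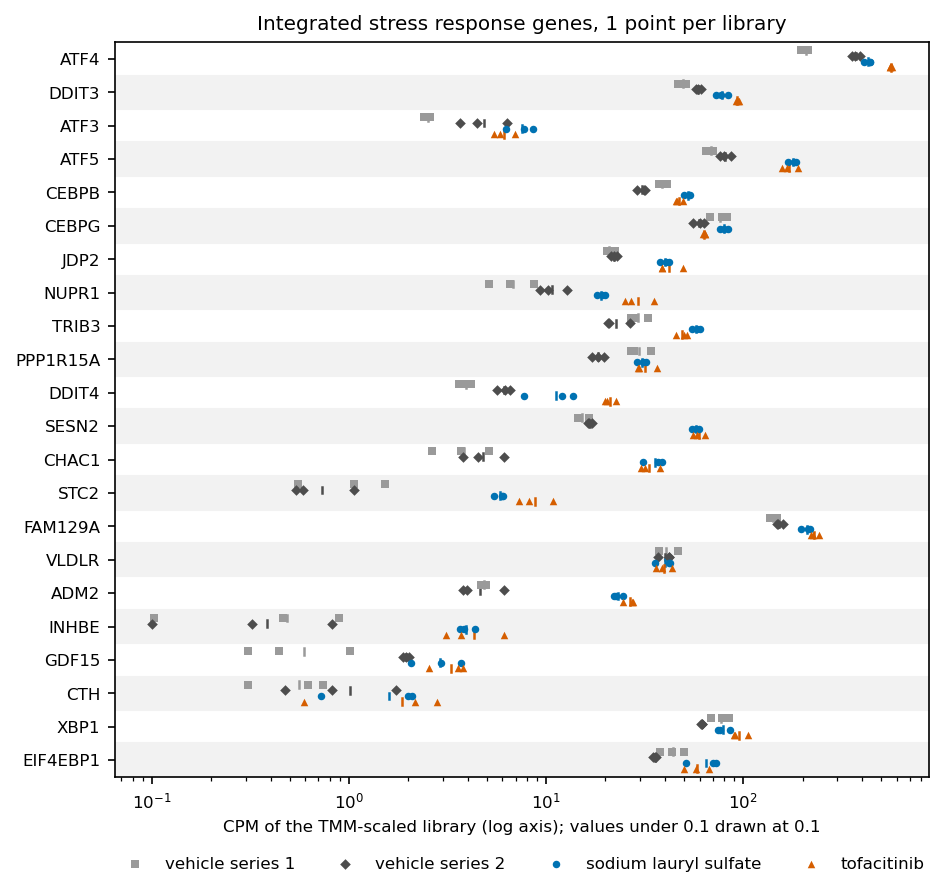
Each point is the CPM of 1 of the 22 integrated stress response genes in 1 library, on a log axis, with a tick at the mean of 3 libraries. The blue SLS and orange tofacitinib points do not overlap for 10 of the 22 genes. DDIT4 is the gene whose tofacitinib libraries (20.0 to 22.7 CPM) were called above the SLS libraries.

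Genes that ATF4 is known to drive further downstream split in part. In the list of serine, one-carbon and asparagine synthesis, 6 of 15 genes rose with SLS and 7 with tofacitinib, and 1 differed between them (6.67%). That gene, PHGDH, which catalyses the entry into serine synthesis, stood at 101, 107 and 105 CPM with SLS and at 138, 159 and 150 CPM with tofacitinib (log2 difference -0.52, SE 0.11, adjusted p = 0.00187). It was also higher in control series 2, by 0.75 on the log2 scale, and the vehicle libraries held 42.5 to 86.1 CPM.

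Among 16 tested amino acid transporters, 4 were higher with SLS and 1 with tofacitinib (31.2% called). The clearest was SLC7A5, the large neutral amino acid exchanger, at 161, 193 and 173 CPM with SLS and 115, 100 and 102 CPM with tofacitinib. The vehicle libraries held 59.2 to 102 CPM (median 71.0), so every SLS library lay above all others, and the log2 difference between the chemicals was 0.73 (SE 0.13, adjusted p = 0.000125). Its heavy-chain partner SLC3A2 stood at 217, 225 and 239 CPM against 188, 182 and 149 CPM (log2 difference 0.39, adjusted p = 0.0149), but without tofacitinib 3 the adjusted p was 0.129 and without SLS 3 it was 0.0773. SLC7A5 and SLC3A2 rose over vehicle with SLS, by 1.26 and 0.65, and were not called with tofacitinib, at 0.53 and 0.26 on the log2 scale. The other genes higher with SLS, SLC1A3 and SLC36A4, and the gene higher with tofacitinib, SLC38A2, each lost the call when 1 of several libraries was left out, SLC1A3 with an adjusted p of 0.103 without SLS 1, SLC36A4 with 0.176 without tofacitinib 1 and SLC38A2 with 0.149 without SLS 1. SLC7A5, SLC1A3, SLC36A4 and SLC38A2 were lower in control series 2, by log2 differences of -0.33, -1.12, -0.25 and -0.19.

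Of 20 aminoacyl-tRNA synthetases, 6 were called between the chemicals (30.0%), and they pointed both ways. LARS, the leucyl enzyme, was higher with SLS, at 212, 222 and 187 CPM against 142, 154 and 145 CPM (log2 difference 0.49, SE 0.08, adjusted p = 4.26e-05). VARS, FARSA and RARS were also higher with SLS, by 0.45, 0.43 and 0.39, and AARS and CARS were higher with tofacitinib, by log2 differences of -0.35 and -0.32. Unlike LARS, these 5 lost the call without single libraries, with adjusted p of up to 0.0956 for VARS and 0.112 for FARSA (both without tofacitinib 2), 0.0894 for RARS (without SLS 2), and 0.24 for AARS and 0.223 for CARS (both without tofacitinib 1). FARSA was lower in control series 2 (-0.27). Over vehicle, 6 of the 20 rose with SLS and 7 with tofacitinib, but LARS, VARS, FARSA and RARS were called with neither. These genes differed from vehicle by 0.32, 0.07, 0.12 and -0.05 with SLS on the log2 scale. With tofacitinib the differences were -0.18, -0.38, -0.31 and -0.43 in the same order.

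Genes of fatty acid use and the cholesterol exporter gene ABCA1 differed in opposite directions. Of 18 tested genes of the PPAR and LXR list, 4 were higher with SLS and 3 with tofacitinib (38.9% called). Within this list the direction followed the branch: the called PPAR targets were higher with SLS and the called LXR genes were higher with tofacitinib.

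PDK4, a kinase that inhibits pyruvate dehydrogenase, stood at 36.3, 36.7 and 24.1 CPM with SLS and at 4.30, 2.31 and 3.45 CPM with tofacitinib. The vehicle libraries held 2.11 to 4.15 CPM (median 2.80), so the tofacitinib libraries lay among them or just above and every SLS library stood far above. The log2 difference was 3.25 (SE 0.32, adjusted p = 4.99e-10). PLIN2, the coat protein of lipid droplets, stood at 318, 329 and 303 CPM with SLS and at 92.8, 99.4 and 91.7 CPM with tofacitinib (vehicle 69.8 to 108 CPM). It rose with SLS by 1.84 on the log2 scale and was not called with tofacitinib (0.10), and the direct difference was 1.74 (SE 0.10, adjusted p = 1.13e-16). PLIN2 was higher in control series 2 by 0.54 on the log2 scale.

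CPT1A, the carnitine transferase that controls the entry of fatty acids into mitochondria, stood at 360, 351 and 334 CPM with SLS and at 195, 189 and 208 CPM with tofacitinib, where the vehicle libraries held 186 to 216 CPM. The libraries did not overlap, with a log2 difference of 0.82 (SE 0.097, adjusted p = 5.18e-08). CPT1A was higher in control series 2 by 0.20. The carnitine carrier SLC25A20 was higher with SLS by 0.67 on the log2 scale (adjusted p = 0.0309), but its adjusted p was 0.214 without tofacitinib 1. ANGPTL4, a lipase inhibitor and PPAR target, was detected at 0.826, 0 and 1.98 CPM with SLS and at 0, 0 and 0.119 CPM with tofacitinib, too few counts for a call (adjusted p = 0.0635), where 3 counts correspond to 0.289 to 0.375 CPM. The receptor genes PPARA, PPARD and PPARG were not called, with log2 differences of -0.26, 0.27 and 0.09.

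ABCA1, the transporter that loads cholesterol onto apolipoprotein A1, went the other way. It stood at 9.71, 9.22 and 9.92 CPM with SLS, at 42.6, 44.3 and 33.6 CPM with tofacitinib, and at 21.9 to 30.9 CPM (median 26.3) in the vehicle libraries. The vehicle libraries lay between the 2 chemicals with no overlap on either side. The log2 difference between the chemicals was -2.06 (SE 0.17, adjusted p = 1.15e-12). ABCA1 fell with SLS by 1.44 on the log2 scale, and its difference of 0.62 with tofacitinib did not pass the test (adjusted p = 0.0624).

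MYLIP, a ubiquitin ligase induced by LXR, stood at 15.8, 9.95 and 13.3 CPM with SLS and at 26.2, 30.3 and 31.0 CPM with tofacitinib (log2 difference -1.16, SE 0.17, adjusted p = 5.11e-06). The vehicle libraries held 17.0 to 22.9 CPM, again between the 2 chemicals. NR1H3, which encodes LXR alpha itself, stood at 4.03 to 5.38 CPM with SLS and 9.15 to 10.7 CPM with tofacitinib (log2 difference -1.05, adjusted p = 0.00316), and was higher in control series 2 by 0.87. ABCG1, a further cholesterol exporter, was under 1.2 CPM in all 6 libraries and not called.

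RNF145, which ties LXR signalling to SREBP processing, was one of the 4 genes that fell with SLS. It had a mean of 27.2 ± 1.22 CPM with SLS, 56.6 ± 3.87 CPM with tofacitinib (SD, n = 3 each) and 42.8 ± 4.35 CPM in the vehicle libraries (n = 6). The direct log2 difference was -1.06 (SE 0.10, adjusted p = 7.73e-10). RNF145 fell by 0.65 with SLS and rose by 0.41 with tofacitinib, so it moved in opposite directions against the same vehicle libraries.

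The ABCA1 promoter is printed because this gene had the largest difference of any LXR gene. It is the RefSeq sequence of GRCh38.p14, chr9:104928106-104928405, minus strand, from 250 bases before to 50 after the start. Capitals mark a match to a direct repeat written as GGTNA, 5 bases of any kind and GGTCA, read on the reverse strand, at bases 69 to 55 before the start.
ABCA1 promoter: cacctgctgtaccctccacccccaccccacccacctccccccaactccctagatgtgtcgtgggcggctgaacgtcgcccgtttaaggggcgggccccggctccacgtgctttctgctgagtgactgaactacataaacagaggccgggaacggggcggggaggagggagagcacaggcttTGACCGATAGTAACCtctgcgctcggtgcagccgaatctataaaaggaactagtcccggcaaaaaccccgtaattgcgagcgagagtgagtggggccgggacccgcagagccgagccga
The pattern was written so as to take in the known LXR element of ABCA1, so its presence here is no finding. It occurred in 0.239% of all promoters of this length and in 1 of 16 matched genes of the list, and overlapped no other motif searched.

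**Figure D3:**
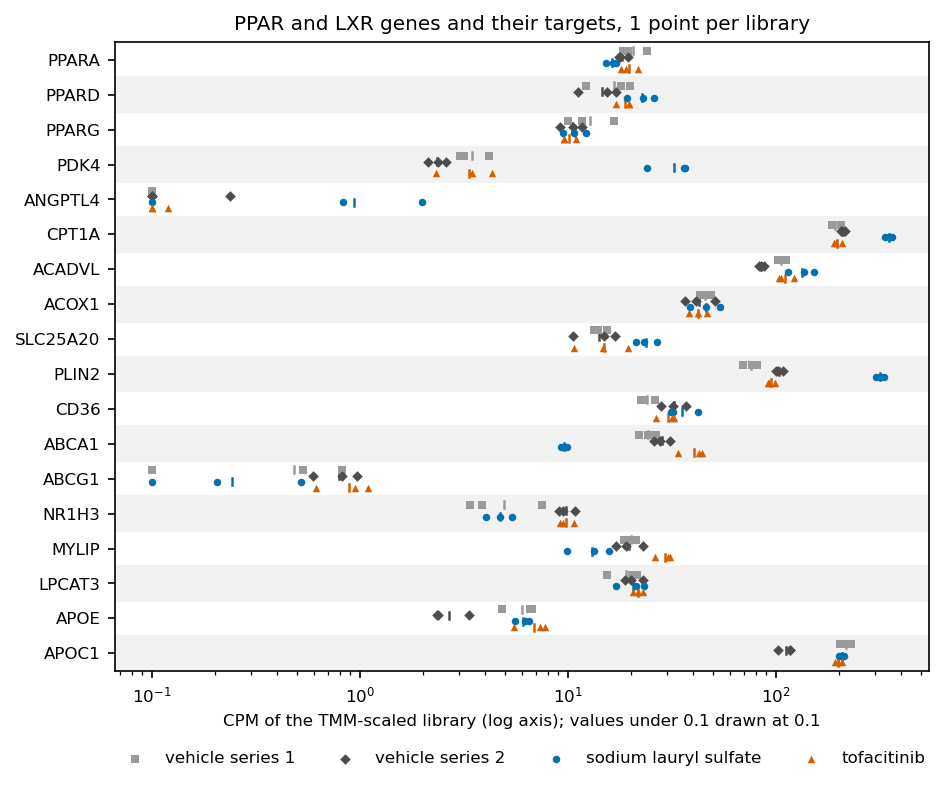
CPM of the 18 tested PPAR and LXR genes and targets, 1 point per library on a log axis, with a tick at the mean of 3 libraries. PDK4, CPT1A and PLIN2 show blue SLS points far right of all others, while ABCA1 and MYLIP show SLS lowest, vehicle between and tofacitinib highest.

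Genes of cholesterol synthesis and uptake were lower with tofacitinib than with SLS. Of 23 tested genes, 12 were higher with SLS and none with tofacitinib (52.2% called, against 7.79% of all genes), and the median log2 difference was 0.55, against -0.002217 over all genes. By list counts against vehicle, 9 fell with tofacitinib and none rose, with a median log2 difference of -0.57, while none was called with SLS, where the median was -0.03. The count higher with SLS was between 9 and 11 when any 1 of the 6 libraries was left out. Counting only genes not called between the control series gave 7.

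MSMO1, a sterol oxidase late in the pathway, stood at 34.3, 31.2 and 34.3 CPM with SLS and at 11.2, 14.6 and 13.9 CPM with tofacitinib. The vehicle libraries held 26.9 to 32.7 CPM, near the SLS libraries and above every tofacitinib library. The log2 difference was 1.33 (SE 0.14, adjusted p = 1.45e-09). SQLE, the epoxidase that commits squalene to sterols, stood at 117, 110 and 110 CPM with SLS and at 56.3, 63.8 and 61.0 CPM with tofacitinib (vehicle 85.8 to 117 CPM; log2 difference 0.90, SE 0.10, adjusted p = 1.2e-08). SQLE was higher in control series 2 by 0.33.

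FDFT1, the squalene synthase, stood at 157, 152 and 172 CPM with SLS against 99.0, 92.6 and 102 CPM with tofacitinib, with vehicle at 146 to 164 CPM and an adjusted p of 3.2e-09. In each of these 3 genes no tofacitinib library reached the lowest vehicle library.

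The gene of mevalonate kinase, MVK, stood at 10.4, 13.8 and 10.1 CPM with SLS and 7.07, 3.29 and 4.75 CPM with tofacitinib (log2 difference 1.17, SE 0.23, adjusted p = 0.000797). HMGCS1, an early enzyme of the pathway, differed by 0.58, the demethylase CYP51A1 by 0.63, and INSIG1, which holds SREBP in the endoplasmic reticulum, by 0.65 on the log2 scale. DHCR7 and IDI1, at 0.93 and 0.87, lost the call without single libraries, with an adjusted p of 0.0583 for DHCR7 without tofacitinib 3 and 0.169 for IDI1 without SLS 1. HMGCS1 and IDI1 were higher in control series 2, by 0.43 and 0.67. SREBF2, the gene of the SREBP factor that drives this pathway, was not called (log2 difference 0.23), nor were FDPS, LSS and EBP (0.21, 0.55 and 0.12).

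The promoters of MSMO1 and MVK are printed because these members had the largest differences of the list and hold a core sterol regulatory element, the kind of site SREBP factors are known to bind. Both are RefSeq sequences of GRCh38.p14 on the plus strand, MSMO1 at chr4:165327419-165327718 and MVK at chr12:109573544-109573843, from 250 bases before to 50 after the start. Capitals mark matches to TCACNCCA, at bases 156 to 149 before the MSMO1 start and 195 to 188 before the MVK start.
MSMO1 promoter: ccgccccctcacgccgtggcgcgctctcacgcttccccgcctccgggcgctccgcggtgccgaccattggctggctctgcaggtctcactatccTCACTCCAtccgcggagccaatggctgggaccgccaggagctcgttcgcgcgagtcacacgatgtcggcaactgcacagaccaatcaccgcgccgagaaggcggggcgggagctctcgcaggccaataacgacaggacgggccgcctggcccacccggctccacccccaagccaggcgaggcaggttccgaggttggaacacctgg
MVK promoter: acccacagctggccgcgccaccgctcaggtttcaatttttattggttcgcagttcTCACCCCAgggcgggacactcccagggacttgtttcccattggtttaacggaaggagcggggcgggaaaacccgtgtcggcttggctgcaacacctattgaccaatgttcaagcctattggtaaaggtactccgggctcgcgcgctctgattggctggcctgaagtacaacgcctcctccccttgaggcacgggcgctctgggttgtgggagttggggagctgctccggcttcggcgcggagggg
Searched on both strands, the pattern was held by 3.95% of the 35116 promoters and by 3 of 19 matched genes of the list (SREBF2, MVK and MSMO1), and in the printed promoters it overlapped no other motif searched.

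**Figure D4:**
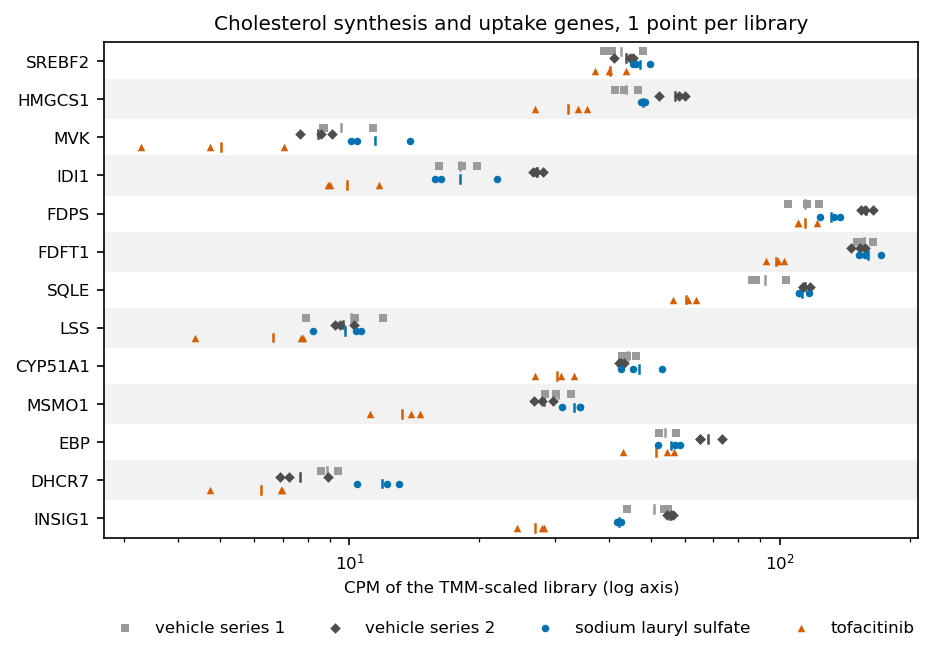
CPM of 13 of the 23 tested cholesterol genes, those named in the text, 1 point per library on a log axis, with a tick at the mean of 3 libraries. For MSMO1, SQLE and FDFT1 the orange tofacitinib points lie left of all others, and the blue SLS points lie among or near the grey vehicle points.

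Of 13 tested genes of fatty acid synthesis and desaturation, 4 were higher with SLS and none with tofacitinib (30.8%). They were the desaturases FADS2 (log2 difference 0.87, adjusted p = 0.00495), FADS1 (0.44) and SCD (0.41), and TMEM97, a sterol-linked membrane protein (0.54). FADS2 stood at 19.6, 25.4 and 25.7 CPM with SLS and at 13.7, 10.7 and 14.3 CPM with tofacitinib, without overlap. SCD had an adjusted p of 0.219 without SLS 3, and FADS1, SCD and TMEM97 were called between the control series, at 0.92, 1.16 and -0.40. FASN, ACACA and SREBF1 were not called.

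In the list of 16 tested JAK-STAT feedback and target genes, 1 was called (6.25%, near the 7.79% of all genes), and for 9 of the 15 not called the 95% interval lay within 2-fold. The gene called was BCL2L1, an anti-apoptotic gene, which was higher with SLS by 0.76 on the log2 scale but had an adjusted p of 0.286 without tofacitinib 2 and was lower in control series 2 (-0.72). CISH stood at 9.19, 7.02 and 8.88 CPM with SLS, at 10.0, 7.19 and 10.5 CPM with tofacitinib, and at 11.9 to 13.9 CPM in the vehicle libraries. Every treated library lay below every vehicle library, but neither chemical passed the test against vehicle (adjusted p = 0.62 and 0.389), and the direct log2 difference was -0.14 (95% interval -0.58 to 0.29).

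PIM1, a kinase gene induced by STAT factors, stood at 11.1 to 19.0 CPM with SLS and 13 to 16.4 CPM with tofacitinib, with a log2 difference of 0.09 (-0.61 to 0.80). SOCS1, SOCS2 and SOCS3 were scarce, under 6.1 CPM in all 6 libraries, with intervals of -0.87 to 1.53, -1.3 to 2.05 and -1 to 0.74, so differences of either sign could not be told apart at this depth. The CISH promoter is printed because it is the textbook feedback gene of the pathway and its promoter is dense in matches. It is the RefSeq sequence of GRCh38.p14, chr3:50611725-50612024, minus strand, from 250 bases before to 50 after the start. Capitals mark 4 matches to the STAT motif TTCNNNGAA, which reads the same on both strands, the first at bases 241 to 233 and the last at bases 112 to 104 before the start.
CISH promoter: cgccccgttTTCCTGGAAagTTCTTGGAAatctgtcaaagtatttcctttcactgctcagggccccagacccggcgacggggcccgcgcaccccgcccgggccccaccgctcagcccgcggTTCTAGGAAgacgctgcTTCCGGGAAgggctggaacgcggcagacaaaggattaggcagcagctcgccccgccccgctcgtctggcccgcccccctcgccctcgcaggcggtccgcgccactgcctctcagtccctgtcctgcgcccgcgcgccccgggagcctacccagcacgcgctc
At least 1 match was held by 7.66% of all promoters of this length and by 3 of 12 matched genes of the list (CISH, BCL6 and FCGR1A), and the 4 matches overlapped neither each other nor another motif searched.

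Of 24 JAK kinases, STAT factors and receptors, 4 were higher with tofacitinib and none with SLS (16.7%). STAT2, a factor of type I interferon signalling, stood at 14.9, 16.9 and 16.8 CPM with SLS and at 38.3, 33.6 and 30.8 CPM with tofacitinib. The vehicle libraries held 14.0 to 19.8 CPM, so only the tofacitinib libraries were raised among these groups, and the log2 difference was -1.08 (SE 0.16, adjusted p = 6.64e-06). STAT2 was lower in control series 2, by a log2 difference of -0.36, the opposite of the direction with tofacitinib. IL10RA, JAK1 and IFNAR1 were higher with tofacitinib by log2 differences of -0.62, -0.29 and -0.34, and each lost the call without single libraries, with adjusted p of 0.126 for IL10RA, 0.24 for IFNAR1 and 0.144 for JAK1, all without SLS 2. JAK1 and IFNAR1 differed between the control series by -0.20 and 0.27.

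Among 34 interferon-stimulated genes, 3 were higher with tofacitinib and none with SLS (8.82%, near the 7.79% of all genes). The median log2 difference was -0.34. GBP2, a guanylate-binding protein, stood at 2.79, 6.07 and 4.53 CPM against 9.11, 8.77 and 6.30 CPM, and IRF1, an interferon-induced transcription factor, at 38.6, 34.8 and 35.4 CPM against 61.1, 40.1 and 46.6 CPM. Their adjusted p were 0.0135 and 0.017, and 0.146 for GBP2 without SLS 1 and 0.264 for IRF1 without tofacitinib 1. The third, IFIT3, had an adjusted p of 0.224 without tofacitinib 1. IFIT3 was higher in control series 2 by 1.63, the median over the list was 0.63 on the log2 scale, and ISG15, IFI6, OAS1 and MX1 were not called between the chemicals.

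Among genes with a mean of at least 5 CPM in either group, the largest difference in favour of tofacitinib was that of TBC1D30, which encodes a GTPase-activating protein for a Rab protein. It stood at 2.38, 2.72 and 3.12 CPM with SLS, at 30.3, 44.5 and 26.1 CPM with tofacitinib, and at 1.73 to 4.34 CPM in the vehicle libraries. The SLS libraries lay inside the vehicle range and the tofacitinib libraries far above it. The log2 difference was -3.61 (SE 0.28, adjusted p = 2.99e-13).

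TSC22D3, which encodes the glucocorticoid-induced leucine zipper protein, stood at 31.1, 34.1 and 32.4 CPM with SLS and at 95.5, 82.5 and 80.9 CPM with tofacitinib (vehicle 20.6 to 35.5 CPM; log2 difference -1.41, SE 0.13, adjusted p = 1.13e-10). TBC1D30 and TSC22D3 belong to a list of 11 glucocorticoid receptor targets that was drawn up after these values were seen. In it 3 genes were higher with tofacitinib and none with SLS (27.3%), the third being KLF9, whose adjusted p was 0.156 without SLS 2 and which was lower in control series 2 (-0.44). FKBP5, a classic target, had a log2 difference of -0.05, and PER1 and ZBTB16 were not called either.

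NCF1, which encodes a cytosolic subunit of the phagocyte NADPH oxidase, stood at 7.02, 3.04 and 6.04 CPM with SLS and at 22.5, 13.6 and 16.9 CPM with tofacitinib (vehicle 7.98 to 9.97 CPM; log2 difference -1.72, SE 0.26, adjusted p = 1.09e-05). Its near-identical copies NCF1B and NCF1C differed by -1.48 and -1.84, and reads cannot be assigned safely among the 3. In a list of oxidase genes made after the values were seen, NCF4 and RAC2 were also higher with tofacitinib, by log2 differences of -0.28 and -0.29, with adjusted p of 0.113 for NCF4 and 0.114 for RAC2 without SLS 1. CYBA and CYBB, the membrane subunits, were not called.

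ITGB2, the beta chain of the leukocyte integrins, stood at 882, 842 and 753 CPM with SLS and at 1365, 1831 and 1835 CPM with tofacitinib (vehicle 731 to 1199 CPM; log2 difference -1.02, SE 0.16, adjusted p = 3.07e-05). ITGAM, an alpha chain that pairs with it, differed by -0.93 (adjusted p = 0.00846, and 0.0828 without SLS 2). ITGAL, another alpha chain, differed by -0.36 and had an adjusted p of 0.144 without SLS 1. ITGB2 and ITGAM were also higher in control series 2, by 0.43 and 0.53. The chains ITGB1, ITGA4 and ITGA5 of the same list, also made after the values were seen, were not called.

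Genes of hypoxia and of p53-linked stress gave a further group. NDRG1, a gene raised by low oxygen and by metal chelation, stood at 65.9, 56.3 and 59.8 CPM with SLS, at 118, 163 and 98.3 CPM with tofacitinib, and at 78.2 to 93.3 CPM in the vehicle libraries. As for ABCA1, the vehicle libraries lay between the chemicals, and the log2 difference was -1.06 (SE 0.11, adjusted p = 1.26e-09). P4HA1, a collagen prolyl hydroxylase, stood at 46.7, 42.7 and 49.9 CPM against 83.0, 87.9 and 72 CPM (log2 difference -0.80, adjusted p = 5.17e-05), and P4HA1 was higher in control series 2 by 0.35.

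ADM, the adrenomedullin gene, was at 0.103, 0 and 0.0945 CPM with SLS and at 1.54, 2.19 and 1.54 CPM with tofacitinib, and SLS was under the level of 3 counts in each library. In all, 4 of 22 tested hypoxia and glycolysis genes were higher with tofacitinib, the fourth being the glucose transporter SLC2A1 (adjusted p of 0.137 without SLS 2), and 2 were higher with SLS, the glycolytic enzymes ALDOA and GPI (27.3% called). ADM had an adjusted p of 0.0542 without SLS 2, and GPI one of 0.0774 without SLS 2, while SLC2A1 was lower (-0.23) and GPI higher (0.16) in control series 2. The glycolytic genes GAPDH, PGK1, ENO1, PKM and LDHA were not called, with log2 differences between -0.11 and 0.16.

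CDKN1A, the p21 inhibitor of the cell cycle, stood at 18.5, 22.3 and 20.1 CPM with SLS and at 51.8, 33.4 and 33.5 CPM with tofacitinib (vehicle 20.4 to 31.3 CPM; log2 difference -0.97, SE 0.13, adjusted p = 9.63e-07). The quinone oxidoreductase gene TP53I3 was higher with tofacitinib too, by a log2 difference of -1.5, as was the pro-apoptotic BBC3 (-0.63), although BBC3 had an adjusted p of 0.177 without tofacitinib 1. The pro-apoptotic PMAIP1 and BAX were instead higher with SLS, by 0.49 each, with adjusted p of 0.0646 for PMAIP1 without tofacitinib 1 and 0.171 for BAX without tofacitinib 2. CDKN1A and PMAIP1 were higher in control series 2, by 0.27 and 0.35. Of 17 p53-linked genes, 2 were thus higher with SLS and 3 with tofacitinib (29.4%), and MDM2, the classic p53 target, was not called (0.08).

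Of the called inflammatory and immediate early genes, most were higher with SLS. TNF stood at 14.9, 22.0 and 21.5 CPM with SLS, at 10.0, 8.89 and 4.63 CPM with tofacitinib, and at 4.38 to 10.2 CPM in the vehicle libraries. All SLS libraries lay above all others, and the log2 difference was 1.3 (SE 0.22, adjusted p = 7.05e-05). CXCL8, the neutrophil chemokine, stood at 5.37, 7.02 and 6.80 CPM against 1.54, 1.34 and 1.78 CPM (log2 difference 2.03, adjusted p = 3.54e-05). The vehicle libraries spanned 0.822 to 7.55 CPM of CXCL8, which was lower in control series 2 by a log2 difference of -1.35 over vehicle and untreated libraries, so the SLS libraries did not stand outside the vehicle range.

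Of 23 tested NF-kB response genes, 3 were higher with SLS (TNF, CXCL8 and the chemokine CCL3) and TNFAIP2 with tofacitinib (17.4% called). The median log2 difference over the list was -0.02, with 10 differences positive and 12 negative. CCL3 and TNFAIP2 lost the call without single libraries, with adjusted p of 0.0766 for CCL3 without tofacitinib 1 and 0.0686 for TNFAIP2 without SLS 1, and TNFAIP2 was higher in control series 2 by 0.83. NFKBIA and TNFAIP3, feedback inhibitors of the same factor, were not called. CCL3 was scarce, at 1.86, 1.89 and 1.23 CPM with SLS and at 0.205, 0.244 and 0.594 CPM with tofacitinib. Its values in tofacitinib 1 and 2 were under the level of 3 counts.

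EGR1, an immediate early factor, stood at 40.9, 58.3 and 75.5 CPM with SLS and at 15.2, 26.8 and 30.1 CPM with tofacitinib (vehicle 18.7 to 41.1 CPM; log2 difference 1.29, SE 0.22, adjusted p = 0.000108). FOS stood at 56.0, 58.3 and 71.0 CPM against 27.4, 26.4 and 28.4 CPM (log2 difference 1.17, adjusted p = 0.00413), against a vehicle range of 16.8 to 67.9 CPM that only SLS 3 passed, and was lower in control series 2 by a log2 difference of -1.42. Of 24 tested immediate early genes (median log2 difference 0.25, 16 positive and 8 negative), 4 were higher with SLS and 1 with tofacitinib (20.8%). The others, IER3 and DUSP2 with SLS and IER5 with tofacitinib, lost the call without single libraries, with adjusted p of 0.204 for IER3 without SLS 1, 0.188 for DUSP2 without tofacitinib 3 and 0.215 for IER5 without tofacitinib 2. IER3 was scarce, at 2.17, 1.15 and 0.756 CPM with SLS and at 0.102, 0.609 and 0.238 CPM with tofacitinib. Its values in tofacitinib 1 and 3 were under the level of 3 counts. JUN, JUNB and FOSL1 were not called.

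Some histone genes were higher with SLS, and those named here also differed between the control series. HIST1H1C, a linker histone, stood at 240, 251 and 215 CPM with SLS, at 63.4, 82.9 and 57.6 CPM with tofacitinib, and at 119 to 200 CPM in the vehicle libraries. No group overlapped another, and the log2 difference was 1.79 (SE 0.12, adjusted p = 1.22e-14). HIST1H1D and HIST1H1E differed by 1.64 and 1.5. HIST1H1C, HIST1H1D and HIST1H1E were lower in control series 2, by log2 differences of -0.73, -0.98 and -0.92, and H1F0 and H1FX, linker histones made outside S phase, were not called (0.20 and 0.03).

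All symbols beginning with HIST summed to 2011 ± 75.5 CPM with SLS, 1249 ± 53.3 with tofacitinib, 1804 ± 45.6 in vehicle series 1 and 1494 ± 45.5 in vehicle series 2 (SD, n = 3 each). Small nucleolar RNA symbols summed to 249.9 ± 18.9, 145.6 ± 12.4, 225.2 ± 34.2 and 132.3 ± 12.2 CPM in the same order. In both sums SLS lay nearer to vehicle series 1, the histone sum with tofacitinib lay below both vehicle series, and the part of the series difference in these sums was not tested. Of 44 tested HIST genes 12 were higher with SLS (27.3%) and 14 of all 44 differences were negative. Of 67 small nucleolar RNAs 6 were higher with SLS (8.96%, near the 7.79% of all genes), 18 differences were negative, and none of either was higher with tofacitinib. Both families were picked after their values were seen, and many members are near-identical copies whose reads cannot be assigned safely. These are counts of QuantSeq 3′ libraries, and how far they follow the full level of histone and small nucleolar RNAs was not tested.

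**Figure D5:**
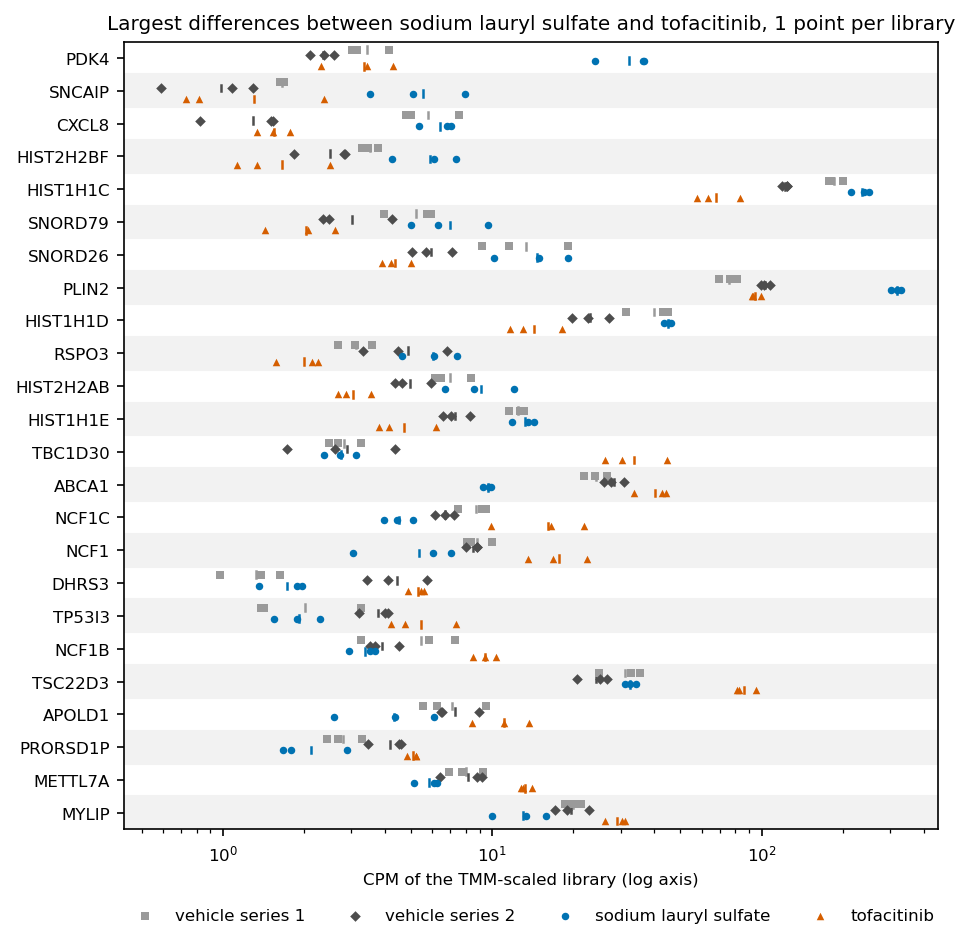
CPM of the 12 largest differences in each direction among called genes with a mean of at least 5 CPM in either group and libraries that did not overlap, 1 point per library on a log axis, with a tick at the mean of 3 libraries. From PDK4 to HIST1H1E the blue SLS points lie right of the orange tofacitinib points, and from TBC1D30 to MYLIP the order is turned; the grey vehicle points show which chemical left the vehicle range.

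The other genes among the largest differences were less abundant. SNCAIP, which encodes a synuclein-interacting protein, stood at 3.51, 7.96 and 5.10 CPM with SLS and 0.819, 0.731 and 2.38 CPM with tofacitinib, and its adjusted p was 0.0704 without SLS 2. RSPO3, a secreted enhancer of Wnt signalling, stood at 7.44, 6.07 and 4.63 CPM against 2.15, 1.58 and 2.26 CPM (log2 difference 1.58, adjusted p = 0.000125), with a control series difference of 0.49. DHRS3, a retinal reductase, was higher with tofacitinib at 5.43, 5.60 and 4.87 CPM against 1.96, 1.36 and 1.89 CPM, with vehicle from 0.977 to 5.75 CPM and a control series difference of 1.11. APOLD1 and METTL7A were higher with tofacitinib as well, by log2 differences of -1.35 and -1.19, with 8.40 to 13.7 and 12.8 to 14.0 CPM. The pseudogene PRORSD1P differed by -1.26 and had an adjusted p of 0.143 without SLS 2.

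Growth-linked genes were higher with SLS where they differed, apart from a split mitotic list. Of 19 ribosome biogenesis genes, 6 were higher with SLS and none with tofacitinib (31.6%), with a median log2 difference of 0.24, while 3 fell with tofacitinib against vehicle and none was called with SLS. GNL3, the nucleolar GTPase nucleostemin, stood at 173, 164 and 144 CPM with SLS and at 92.6, 104 and 98.6 CPM with tofacitinib (vehicle 146 to 163 CPM; log2 difference 0.71, SE 0.085, adjusted p = 8.81e-08). UTP20 and NOP16, ribosome assembly factors, differed by 0.51 and 0.60 and each fell with tofacitinib, by 0.63 and 0.54. The other 3, RRP9, WDR12 and NCL, lost the call without single libraries, with adjusted p of 0.0527 for RRP9 without tofacitinib 2, 0.111 for WDR12 without SLS 1 and 0.166 for NCL without tofacitinib 1. RRP9 and NCL differed between the control series by -0.41 and 0.81.

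Of 20 DNA replication genes, 5 were higher with SLS and none with tofacitinib (25.0%), all by under 0.6 on the log2 scale. Against vehicle, 3 of the list fell with tofacitinib, CDC6 (-0.38) and RFC3 (-0.60) among them, and none was called with SLS. CDC6, which loads the replicative helicase, stood at 59.7, 59.8 and 55.9 CPM against 45.5, 46.8 and 44.9 CPM (log2 difference 0.35, adjusted p = 0.00331), and the helicase subunits MCM6 and MCM4 differed by 0.36 and 0.31, MCM6 being lower in control series 2 (-0.21). MCM4, RFC3 and CCNE1 lost the call without single libraries, with an adjusted p of 0.0671 for MCM4 and 0.074 for CCNE1 without tofacitinib 2, and 0.118 for RFC3 without tofacitinib 3. PCNA and MCM2 were not called.

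The G2 and mitosis list split, with 2 genes higher with SLS and 2 with tofacitinib of 20 (20.0%). By list counts against vehicle, 3 fell with tofacitinib, CCNB1 among them (-0.39), and none was called with SLS. CCNB1 stood at 133, 120 and 134 CPM with SLS and 92.7, 97.3 and 84.4 CPM with tofacitinib (log2 difference 0.50, adjusted p = 7.01e-05), whereas CCNB2, the other B-type cyclin, differed by -0.43 and had an adjusted p of 0.0666 without tofacitinib 1. PLK1 was higher with SLS by 0.32 (adjusted p = 0.0639 without tofacitinib 2), AURKA was higher with tofacitinib by a log2 difference of -0.41 (0.0918 without tofacitinib 2), and CDK1, TOP2A and CDC20 were not called. CCNB1 and AURKA differed between the control series by -0.18 and 0.49.

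Protein folding genes differed in few members. PDIA3, a disulfide isomerase of the endoplasmic reticulum, stood at 293, 277 and 264 CPM with SLS and at 179, 161 and 166 CPM with tofacitinib, where the vehicle libraries held 232 to 295 CPM (log2 difference 0.72, SE 0.13, adjusted p = 0.000125). It was the only gene called of 20 endoplasmic reticulum chaperone and degradation genes (5.0%), and HSPA5, the main chaperone of the unfolded protein response, differed by 0.06. Of 18 heat shock proteins, 3 were higher with SLS and 1 with tofacitinib (22.2%), each of which lost the call without at least 1 library: STIP1 (0.078 without tofacitinib 2), HSPE1 (0.0587 without SLS 3), HSPD1 (0.135 without tofacitinib 1) and DNAJB1 (0.122 without SLS 2) by adjusted p. The control series differed by -0.24 for PDIA3, 0.31 for HSPD1 and 0.40 for DNAJB1. HSPA1A and HSPA1B, near-identical heat shock genes, were not called.

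The NRF2 and lysosome lists held 1 called gene each. Of 22 tested NRF2 genes, which answer oxidative stress, only OSGIN1 was called (4.55%), higher with tofacitinib but with an adjusted p of 0.317 without tofacitinib 3 and a control series difference of 2.12, and for 19 of the other 21 the 95% interval lay within 2-fold, HMOX1, NQO1 and TXNRD1 not being called. Of 23 lysosome and autophagy genes only NPC2, a cholesterol-binding protein of the lysosome, was called (4.35%), higher with tofacitinib by a log2 difference of -0.39 and with an adjusted p of 0.067 without tofacitinib 1. The metal-binding metallothioneins MT2A, MT1E and MT1F were higher with tofacitinib, 3 of 10 in the list (30.0%), with MT2A at 80.6, 96.2 and 93.7 CPM against 161, 162 and 159 CPM. They were higher in control series 2 as well, by 1.13, 1.13 and 0.68 on the log2 scale, and the vehicle libraries of MT2A spanned 102 to 194 CPM. MT1E had an adjusted p of 0.123 without SLS 1.

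Of 20 tested macrophage maturation genes, 2 were higher with SLS and 1 with tofacitinib (15.0%). TREM2, a lipid-sensing receptor, stood at 266, 291 and 261 CPM with SLS against 222, 226 and 219 CPM (log2 difference 0.30, adjusted p = 0.00498, and 0.0559 without SLS 2). The calcium-binding S100A9 was at 64.3, 61.6 and 60.4 CPM with SLS and 44.4, 40.4 and 42.9 CPM with tofacitinib, both under the vehicle range of 70.2 to 101 CPM, with an adjusted p of 0.0104, and 0.0546 without tofacitinib 2. Of 12 tested antigen presentation genes, HLA-DMA was higher with SLS and CD74, the invariant chain, with tofacitinib (16.7%), with adjusted p of 0.236 for HLA-DMA without tofacitinib 1 and 0.114 for CD74 without SLS 1. For TREM2, S100A9 and CD74 the control series differed by -0.28, 0.49 and -0.22. CD14, CD68, CSF1R and HLA-DRA were not called.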

How the data were processed

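THP-1 RNA was sequenced as QuantSeq 3′ libraries from 500 ng of RNA, per the labels' protocols. The authors deposited whole-number read counts per gene row, made with Bowtie2 and bedtools on hg19 per the submitters' processing notes, versions not given in the sources used here. Each file held 25737 rows, and rows of the same symbol were summed to 24462 symbols (286 symbols on 1561 rows, 1.36% of counts). All 48 libraries in 16 groups were fitted together with edgeR 4.0.16 in R 4.3.3 (TMM scaling, filterByExpr, quasi-likelihood F-test, 32 residual degrees of freedom), and p-values were adjusted by Benjamini-Hochberg over 15642 genes. CPM are per TMM-scaled library. A call against vehicle needed the same sign against each vehicle series, with the larger p kept. Code was tested on simulated data. Alternatives used DESeq2 1.42.0 and limma 3.58.1 (voom), other filters, scalings and library sets. Named genes were the 12 largest differences on each side (at least 2-fold, 5 CPM, libraries not overlapping), up to 4 called genes per list, all integrated stress response genes and 5 JAK-STAT feedback genes; others in the text were chosen after their values were seen. Members and lists were chosen with earlier results of these data known. Some genes are not reported here.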

Additional observations from a re-analysis of the deposited data

How the results depend on the processing

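The direct comparison kept its count within 1.5 times of 1219 with RLE factors (1222), DESeq2 (1448), voom (1238), no filter (1116), a filter of 5 CPM (1360), symbols on several rows left out (1191), the 6 libraries alone (1652) and without the dexamethasone and mercuric chloride libraries (1793, with 837 higher with tofacitinib). It moved to 2124 (1181 higher with SLS, 943 with tofacitinib) with the position between control series as a covariate. That fit held only the SLS, tofacitinib and vehicle libraries, with the vehicle series merged. The count was 517 (278 and 239) over genes not called between the control series. Both settings were chosen after seeing the data. Leaving out 1 library gave 703 to 853 (407 to 474 and 287 to 379). Calls for SLS against vehicle (48) were 140 in the compared libraries alone, 108 against series 1, 2802 against series 2, and 36 to 44 with 1 library left out. Calls for tofacitinib against vehicle (363) were 769, 1725 and 2952 in the same order, 549 without the dexamethasone and mercuric chloride libraries, and 214 to 285 with 1 library left out. The cause of these shifts was not tested, apart from the fewer libraries or genes each setting holds. Same-numbered libraries did not deviate together (r = -0.0187, 0.0255 and -0.0136), and the fit with a replicate block gave 1153 calls, or 1313 in the 6 libraries. None of the 131 called genes with alternatives reversed in any setting. Depth limits genes near 3 counts per library, and that floor covers counting error only.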
